A study of Mus musculus with 9 samples.

Results

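Nrf2, the product of *Nfe2l2*, is a cap'n'collar transcription factor, and the genes described here encode Nrf2, its inhibitors and its partners on DNA. In unstressed cells Keap1 binds Nrf2 and bridges it to a ubiquitin ligase built on the scaffold Cul3 and the RING protein Rbx1, so that Nrf2 is degraded by the proteasome. Oxidants and electrophiles modify Keap1, Nrf2 then accumulates, pairs with a small Maf protein (Mafg, Mafk or Maff) and binds antioxidant response elements. Bach1 and Bach2 pair with the same small Mafs and repress many of the same elements, and heme releases Bach1 from DNA. Nrf1, encoded by *Nfe2l1*, is a related factor that is anchored in the endoplasmic reticulum and is known for control of the proteasome subunit genes.

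The members were chosen by name, with earlier results of these data known. They are 9 genes, *Nfe2l2*, *Keap1*, *Bach1*, *Bach2*, *Mafg*, *Mafk*, *Maff*, *Cul3* and *Rbx1*, of 15122 genes listed in any of 3 deposited tables. Of these, 8 had values in every table, and *Bach2* was not analysed here. All 8 also passed the filter for the tests, a mean normalised read count of at least 10.

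The cells were neonatal rat ventricular myocytes (NRVMs), heart muscle cells isolated from Sprague-Dawley rats 1 or 2 days old and kept in culture. After 48 h in culture, they were infected with adenovirus at a multiplicity of infection of 50 and collected 48 h later. The virus expressed LacZ (bacterial β-galactosidase, the control), Nrf1 or Nrf2, with 3 libraries per group. Per the study's methods, the inserts were cloned behind a CMV promoter in a vector that also carries a red fluorescent protein, so that all groups, LacZ included, were infected and carry this vector. The promoter is not specific to myocytes, and the expression is forced. No oxidant was added in the groups described here as far as the labels say. The labels do not say whether the libraries of a group came from separate isolations, so p-values measure the spread between these libraries, which may be technical.

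The deposited values are group means, from which whole reads per library were solved, since each group stands in 2 tables with different scaling. Libraries within a group carry no replicate number in these tables and are called a, b and c. They held 7759856 to 11960378 counted reads each, over the genes solved in their group. Values below are normalised read counts, that is, reads divided by a size factor on 1 scale for the 9 libraries. They are not corrected for gene length, so levels are compared between groups and not between genes. In what follows, "rose" and "fell" mean an adjusted p under 0.05 in limma, and "called" means that the change was also over 1.5-fold. The label of cardiomyocytes was checked with 7 markers (*Myh6*, *Myh7*, *Tnnt2*, *Tnni3*, *Actn2*, *Myl2* and *Ryr2*), and the lowest normalised read count of any of them in any library was 1921, for *Tnni3*.

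The insert of the Nrf2 virus was the mouse coding region, and its start is shown because it carries both contacts with Keap1. The first 300 coding bases of mouse *Nfe2l2* (the transcript for 597 residues in GENCODE vM21, build GRCm38, minus strand) come from exon 1 at chr2:75704364-75704408 and exon 2 at chr2:75679175-75679429, within the gene at chr2:75675513-75704641. Capitals mark the codons of the DLG motif (residues 29 to 31) and of the ETGE motif (residues 79 to 82), the weak and the strong site at which Keap1 binds. The motifs were located by translation of the transcript, and the exact insert used is not given in the sources used here.
Mouse Nfe2l2, coding bases 1 to 300: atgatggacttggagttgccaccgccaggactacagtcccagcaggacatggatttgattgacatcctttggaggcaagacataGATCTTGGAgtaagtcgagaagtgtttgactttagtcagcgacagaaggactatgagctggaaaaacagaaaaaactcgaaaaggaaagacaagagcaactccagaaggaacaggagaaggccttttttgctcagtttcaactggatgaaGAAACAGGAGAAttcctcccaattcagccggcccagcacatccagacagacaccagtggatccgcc

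*Nfe2l2* was first examined as a check of the labels. Its normalised read count was 78771, 77442 and 67554 in the Nrf2 libraries. In the LacZ libraries it was 3473, 3399 and 3493, and in the Nrf1 libraries it was 2815, 2893 and 2869. The Nrf2 libraries stood far above all others, with *Nfe2l2* at 0.693% to 0.81% of the reads over the 15088 genes solved in all groups, against 0.0374% to 0.038% in LacZ. The log2 fold change over LacZ was 4.43 ± 0.05 (SE, n = 3 per group; limma adjusted p = 7.66e-17). Reads of the transgene and of the cells' own gene cannot be told apart, so nothing is said here of the level of the rat gene in the Nrf2 group. Mouse reads that matched the rat genome poorly would also be missing from this count, which was not tested. *Nfe2l1*, the gene of the other transgene, was not analysed here.

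The cells' own *Nfe2l2* could be read in the Nrf1 group, where no Nrf2 virus was given. It fell by 0.28 on the log2 scale relative to LacZ (± 0.03 SE, n = 3 per group; limma adjusted p = 3.44e-06), a change below the fold cutoff. The 3 Nrf1 libraries lay below all 3 LacZ libraries.

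Overexpression of Nrf1 raised *Keap1*, *Mafg* and *Rbx1* and lowered *Maff* relative to LacZ. Of the 8 members, 3 were called higher and 1 lower in limma, where 11.2% of all genes tested were called higher and 16.5% lower. At an adjusted p under 0.05 alone, 3 members rose and 2 (*Nfe2l2* and *Maff*) fell, against 34.7% of all genes that rose and 32.3% that fell. By the ratio of the deposited group means alone, with no test, 4 of 8 members were past 1.5-fold in either direction, against 39.3% of all genes listed. Shares by group means take in genes with low counts, whereas each member had a mean of at least 100 in a group of each table. Overexpression of Nrf2 raised *Keap1*, *Mafg* and *Bach1* in addition to *Nfe2l2*. There, 4 members were called higher and 0 lower, where 8.78% of all genes tested were called higher and 9.28% lower. This count and those below for Nrf2 over LacZ include *Nfe2l2*. Its reads hold the transgene in the Nrf2 group, so its place among the higher members was set by the design. At a p under 0.05 alone, adjusted or not, 6 members were higher, with *Rbx1* and *Cul3* beside the 4 called, and 1, *Mafk*, was lower. By adjusted p, 28.6% of all genes were higher and 26% lower. By group means, the same number of members, 4 of 8, was past 1.5-fold, against 31.1% of all genes listed, low ones included. The comparisons with LacZ share their LacZ libraries, so the values are given side by side and not as independent results.

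**Figure D1:**
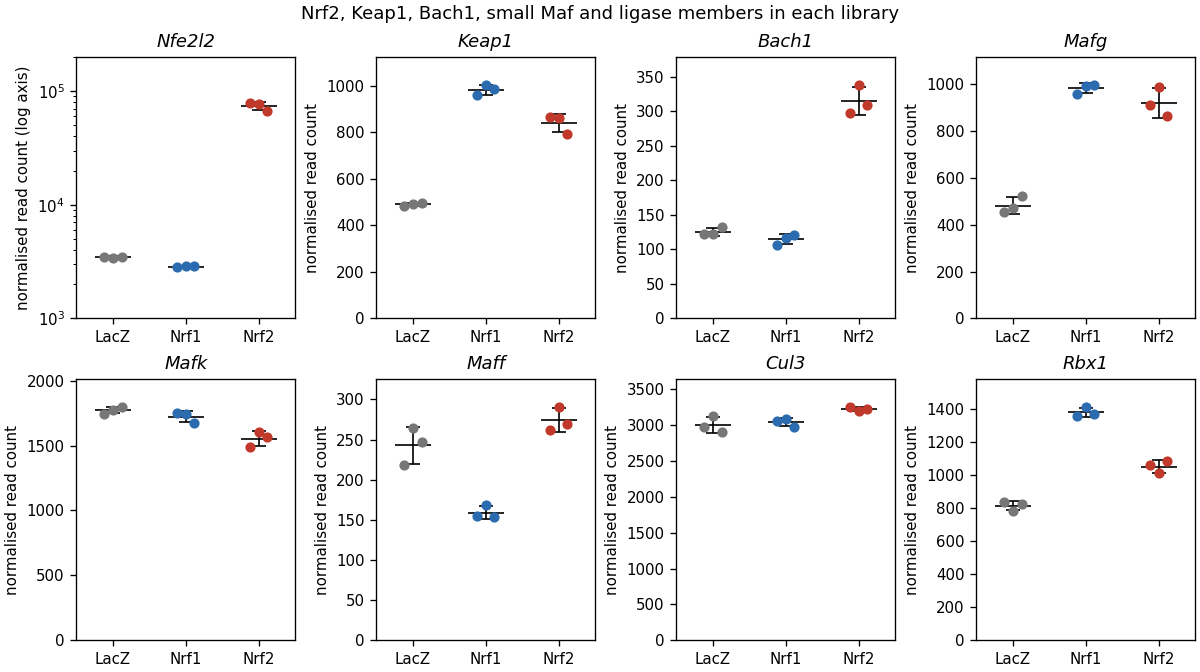
Normalised read counts of the 8 members in each library (points; y axes linear from 0, except a log axis for *Nfe2l2*), with the mean and SD over 3 libraries (black bar) for LacZ (grey), Nrf1 (blue) and Nrf2 (red). *Keap1* lay at 483 to 497 in LacZ and at 795 or more in both other groups, whereas *Bach1* was at 297 or more only in the Nrf2 libraries and at 132 or less elsewhere.

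Keap1, the adaptor that recognises Nrf2, had 483, 494 and 497 normalised reads in the LacZ libraries. It had 960.0, 1004 and 987 in the Nrf1 libraries and 867, 860.0 and 795 in the Nrf2 libraries. The groups did not overlap, with LacZ lowest and Nrf1 highest. The log2 fold change was 1.00 ± 0.05 with Nrf1 (limma adjusted p = 6.69e-11) and 0.77 ± 0.05 with Nrf2 (limma adjusted p = 2.22e-08). Set against each other, the Nrf2 libraries had less *Keap1* than the Nrf1 libraries, with a difference of -0.23 ± 0.04 on the log2 scale (limma adjusted p = 1.80e-04). That difference is under the fold cutoff.

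*Cul3*, the scaffold of the ligase, stayed within a narrow range of 2898 to 3250 over the 9 libraries. With Nrf1 its log2 fold change was 0.02 (95% interval -0.06 to 0.10; limma adjusted p = 0.684), and with libraries scaled to total reads it was -0.05, so no direction is given. With Nrf2 it was 0.11 ± 0.04 (limma adjusted p = 0.025), and 0.02 (adjusted p = 0.661) with libraries scaled to total reads. Leaving out any 1 library but LacZ library b also took its adjusted p past 0.05. Nrf2 against Nrf1 gave 0.08 ± 0.03 (limma adjusted p = 0.0143), and the adjusted p was over 0.05 without Nrf1 library c or Nrf2 library a.

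Rbx1, the RING subunit that recruits the ubiquitin-conjugating enzyme, had 836, 785 and 824 normalised reads in LacZ, 1356, 1411 and 1371 in Nrf1 and 1060, 1011 and 1083 in Nrf2 libraries. The order LacZ, Nrf2, Nrf1 held with no overlap. It rose by 0.76 ± 0.05 on the log2 scale with Nrf1 (limma adjusted p = 6.61e-10), which was called. With Nrf2 it rose by 0.37 ± 0.05 (limma adjusted p = 1.53e-05), which was not. Nrf2 libraries were lower than Nrf1 libraries by -0.40 ± 0.04 (limma adjusted p = 7.77e-08).

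*Bach1*, which encodes the repressor that competes with Nrf2 for small Mafs, had the lowest counts of the members in the LacZ and Nrf1 groups. It had 122, 122 and 132 normalised reads in LacZ libraries (121, 109 and 111 raw reads), 106, 117 and 121 in Nrf1 and 297, 338 and 309 in Nrf2 libraries. The Nrf2 libraries lay well above the other groups, which lay close to each other. The log2 fold change with Nrf2 was 1.32 ± 0.09 (limma adjusted p = 1.32e-08), a ratio of group means of 2.52. With Nrf1 it was -0.13 ± 0.11 (95% interval -0.36 to 0.11; limma adjusted p = 0.317). The difference between the factors was tested directly and was 1.44 ± 0.09 (limma adjusted p = 1.00e-10), higher with Nrf2 in 3 of 3 libraries than in any Nrf1 library.

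The genes of the small Mafs, which lack an activation domain and serve as partners for both Nrf factors and for Bach1, are given one by one. *Mafg* had 453, 470.4 and 522 normalised reads in LacZ, 959, 994 and 997 in Nrf1 and 912, 989 and 863 in Nrf2 libraries. It rose by 1.03 ± 0.06 on the log2 scale with Nrf1 (limma adjusted p = 3.34e-10) and by 0.94 ± 0.06 with Nrf2 (limma adjusted p = 2.62e-08). The Nrf1 and Nrf2 libraries overlapped, with a difference of -0.10 ± 0.05 (95% interval -0.20 to -0.00; limma adjusted p = 0.076). Without Nrf2 library b this difference was -0.15 and its adjusted p was under 0.05.

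*Mafk* ranged from 1488 to 1797 normalised reads over all libraries. It was 1746 to 1797 in LacZ, 1677 to 1750 in Nrf1 and 1488 to 1604 in Nrf2 libraries, so that the Nrf2 group lay below both others. It fell by 0.19 on the log2 scale with Nrf2 (± 0.04; limma adjusted p = 0.00131), less than the fold cutoff. With Nrf1 the value was -0.04 ± 0.04 (limma adjusted p = 0.342), and -0.11 (adjusted p = 0.0185) with libraries scaled to total reads. Nrf2 against Nrf1 gave -0.15 ± 0.04 (limma adjusted p = 0.00121).

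*Maff* had 218, 264 and 247 normalised reads in LacZ, 155, 169 and 154 in Nrf1 and 262, 290.5 and 269.9 in Nrf2 libraries. Nrf1 libraries were lowest with no overlap, whereas the LacZ and Nrf2 libraries overlapped. It fell by 0.60 on the log2 scale with Nrf1 (± 0.09; limma adjusted p = 3.79e-05). This value is close to the fold cutoff: without LacZ library b, Nrf1 library a or Nrf1 library c the change was -0.54, -0.58 or -0.58 and was no longer called, although adjusted p stayed at or under 3.79e-04. With Nrf2 it was 0.18 ± 0.09 (95% interval -0.01 to 0.36; limma adjusted p = 0.0936), and 0.24 (adjusted p = 0.031) without LacZ library b. Nrf2 libraries were higher than Nrf1 libraries by 0.77 ± 0.08 (limma adjusted p = 1.70e-07).

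When the factors were compared directly, 3 members, *Nfe2l2*, *Bach1* and *Maff*, were called higher with Nrf2 and 0 lower in limma, where 10.6% of all genes were called higher and 4.57% lower. With no fold required, 4 members passed as higher, with *Cul3*, and 3 (*Keap1*, *Mafk* and *Rbx1*) as lower at an adjusted p under 0.05, against 28.6% and 30.2% of all genes. At an unadjusted p under 0.05, 4 were lower, with *Mafg*. By the group means, 3 of 8 members were past 1.5-fold, against 28.8% of all genes listed, low ones included. *Nfe2l2* is among the higher members in each of these counts. Its reads hold the transgene in the Nrf2 group, so its place there was set by the design. In the comparison of Nrf2 with LacZ, 48.6% of all calls were higher, and 37.2% with libraries scaled to total reads, but the calls of the members did not differ between these scalings.

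**Figure D2:**
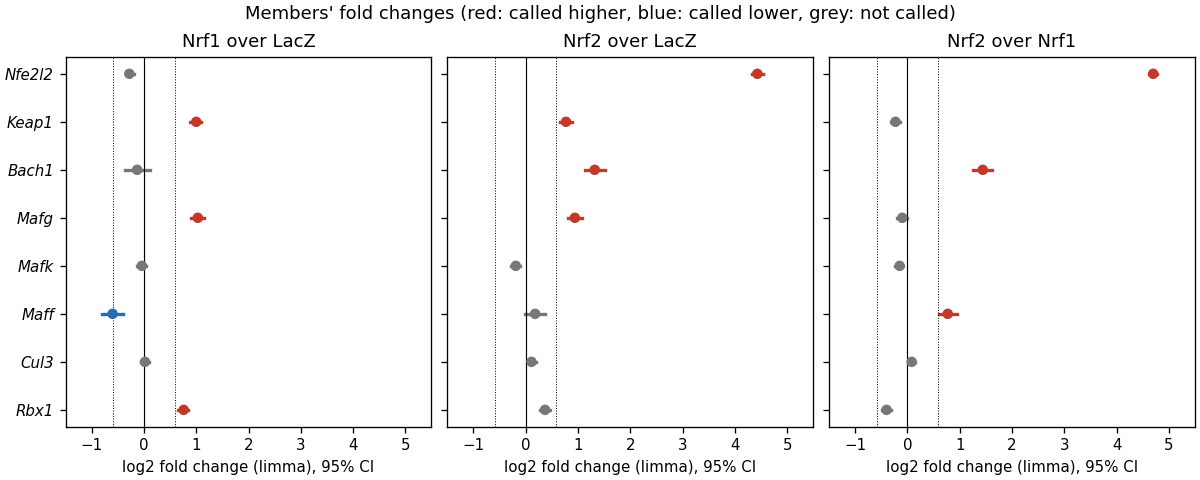
Log2 fold change of each member from limma (points) with its 95% interval (lines), for Nrf1 over LacZ, Nrf2 over LacZ and Nrf2 over Nrf1, in red where called higher, blue where called lower and grey otherwise; dotted lines mark 1.5-fold. *Bach1* stood at 1.32 with Nrf2 and at -0.13 with Nrf1, while *Mafg* stood near 1 with both.

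Ratios of reads of 2 members within a library need no scaling between libraries, and they were computed after the data had been seen. *Keap1* per *Cul3* was 0.163, 0.158 and 0.171 in LacZ, 0.315, 0.325 and 0.332 in Nrf1 and 0.267, 0.269 and 0.247 in Nrf2 libraries, and the groups did not overlap. *Mafg* per *Mafk* was 0.272 ± 0.0163 (SD, n = 3) in LacZ, 0.571 ± 0.0231 in Nrf1 and 0.593 ± 0.037 in Nrf2 libraries, with overlap of the last pair. *Maff* per *Mafk* went from 0.137 ± 0.0119 in LacZ to 0.0925 ± 0.00406 in Nrf1 and 0.176 ± 0.0045 in Nrf2 libraries.

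*Bach1* per *Mafg*, repressor reads per partner reads, was 0.26 ± 0.00801 in LacZ, 0.117 ± 0.00559 in Nrf1 and 0.342 ± 0.0159 in Nrf2 libraries. The order Nrf1, LacZ, Nrf2 held in every library. The difference between Nrf2 and Nrf1 was 1.55 ± 0.06 (SE) on the log2 scale. *Nfe2l2* per *Keap1* in the groups without the Nrf2 virus was 7.18, 6.88 and 7.03 in LacZ and 2.93, 2.88 and 2.91 in Nrf1 libraries. For all 18 comparisons of 6 ratios, an exact two-sided permutation test of 3 against 3 libraries cannot go below 0.1. It gave 0.1 in 17 of them (Benjamini-Hochberg adjusted p = 0.106), and 0.4 for *Mafg* per *Mafk* between Nrf2 and Nrf1. The 17 include *Nfe2l2* per *Keap1* for Nrf2 over LacZ and for Nrf2 over Nrf1. There the reads of *Nfe2l2* hold the transgene, so that separation was set by the design. A value of 0.1 here means only that the libraries of the groups did not overlap. How often ratios of other gene pairs separate in this way was not examined.

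**Figure D3:**
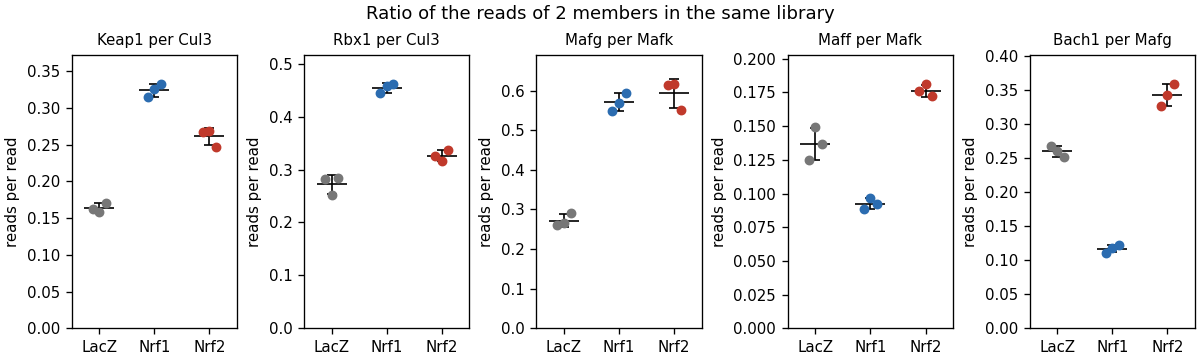
Ratio of the reads of a pair of members in the same library (points; y axes linear from 0) with the mean and SD over 3 libraries (black), by group. *Bach1* per *Mafg* lay at 0.111 to 0.122 in Nrf1, 0.252 to 0.268 in LacZ and 0.326 to 0.358 in Nrf2 libraries.

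The culture is not pure, and markers of other cells moved with the groups. The summed normalised count of 7 fibroblast markers was 97409 to 99072 in LacZ, 24908 to 27108 in Nrf1 and 51008 to 55269 in Nrf2 libraries, with none at 0. Most of this sum was *Col1a1*, at 91306 to 91875 in LacZ, 23008 to 25158 in Nrf1 and 47889 to 51907 in Nrf2 libraries. Taken one by one, all 7 fibroblast markers were called lower with Nrf1 and 5 with Nrf2. The sum of 6 leukocyte markers was 1520 to 2188 in LacZ, 914 to 946 in Nrf1 and 828 to 941 in Nrf2 libraries, and 5 of 6 were called lower with each factor. *Csf1r* went the other way with Nrf1 and rose, at 222 to 349 in LacZ and 347 to 410.4 in Nrf1 libraries. With Nrf2 it was not called, at 261 to 330.3. LacZ library b stood apart with the highest leukocyte sum. The sum of 5 endothelial markers was 1054 to 1117 in LacZ, 787 to 864 in Nrf1 and 779 to 913 in Nrf2 libraries, with 3 of 5 called lower with Nrf1 and 2 with Nrf2. Of these, *Kdr* did not fall with Nrf1, at 338 to 407 in LacZ and 404 to 428 in Nrf1 libraries. *Tek* was higher with Nrf2 at an unadjusted p under 0.05 only, at 242 to 286 in LacZ and 274 to 333 in Nrf2 libraries.

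The sum of the 7 measured cardiomyocyte markers was 89741 to 99601 in LacZ, 76026 to 76276 in Nrf1 and 101528 to 105667 in Nrf2 libraries. The sum hides changes in opposite directions. With Nrf1, 3 of the 7 were called lower and 1 higher: *Myh7*, *Tnni3* and *Myl2*, genes of the contractile apparatus, were lower, with *Tnni3* at 3597 to 3964 in LacZ and 1921 to 1947 in Nrf1 libraries. *Ryr2*, the calcium release channel, was higher, at 4303 to 4732 in LacZ and 7832 to 8025 in Nrf1 libraries. With Nrf2, 0 of the 7 were called by limma, and 5 were higher and 2 lower by p under 0.05, adjusted or not. Fewer cells of a type and less RNA per cell cannot be told apart in these bulk libraries. The part of these shifts in the values of the members was not tested. Markers of B lymphocytes, in which *Bach2* is best known, summed to at most 9.62 in any library.

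The other genes around these members were grouped by role, and the lists were drawn up with earlier results of these data known. Among other cap'n'collar and Maf factors, *Maf*, a large Maf with an activation domain, had deposited group means of 79.1 in LacZ and 39.9 in Nrf1 and was called lower (log2 fold change -0.98 ± 0.18; limma adjusted p = 2.12e-04). With Nrf2 it was called lower at -0.80 ± 0.17 (limma adjusted p = 0.00109). It moved with most of the leukocyte and fibroblast markers given above, whose part in this was not tested. *Nfe2l3* (10.6 in LacZ and 6.83 in Nrf1) and *Nfe2* (2.75 and 5.64) were too low to be tested, and *Nrl* was listed at 0 with either factor.

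A list of 17 genes held ligase cofactors, genes of neddylation, the modification that activates cullins, and the cullins *Cul1*, *Cul2*, *Cul4a*, *Cul4b* and *Cul5*. Of the 17, 13 rose and 0 fell with Nrf1, where 34.7% of all genes rose and 32.3% fell. Of these, 3 were called higher, against 11.2% of all genes. Their median log2 fold change was 0.34, against 0.01 over all genes tested. *Cops5*, the catalytic subunit of the COP9 signalosome that removes Nedd8, had group means of 1121 and 2007 (0.84 ± 0.05; limma adjusted p = 2.14e-10). *Ube2m*, a Nedd8-conjugating enzyme, had 1962 and 3119 (0.67 ± 0.05; limma adjusted p = 2.77e-09), and *Nae1*, part of the Nedd8-activating enzyme, had 245 and 371 (0.60 ± 0.07; limma adjusted p = 1.76e-06). With Nrf2, 11 of the 17 rose and 1, *Cul5*, fell, with 0 called in either direction and a median of 0.24. At an unadjusted p under 0.05, 12 were higher and 1 lower. Of all genes, 28.6% rose and 26% fell with Nrf2, and 8.78% were called higher and 9.28% lower. Here *Cops5* stood at 0.41, *Ube2m* at 0.24 and *Nae1* at 0.20. Between Nrf2 and Nrf1, 8 of the 17 were lower and 1, *Cul4b*, higher by adjusted p, with 0 called. At an unadjusted p under 0.05, 3 were higher and 8 lower. *Cops5* and *Ube2m* stood at -0.44 each. By adjusted p, 30.2% of all genes were lower and 28.6% higher with Nrf2 than with Nrf1.

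Among 17 measured regulators of the Nrf2 and Keap1 proteins, 4 were called higher and 1 lower with Nrf1, and 2 higher and 1 lower with Nrf2. With Nrf2 these shares are near those of all genes, 8.78% higher and 9.28% lower, and with Nrf1 all genes stood at 11.2% and 16.5%. Their median log2 fold changes were 0.24 and 0.05. *Sqstm1*, which encodes p62, the autophagy receptor that sequesters Keap1, had group means of 4573 and 9073 with Nrf1 (0.99 ± 0.03; limma adjusted p = 9.34e-13) and 4883 and 11730 with Nrf2 (1.26 ± 0.04; limma adjusted p = 1.73e-12). *Skp1*, a subunit shared by the β-TrCP ligases, rose with both factors, by 0.83 in Nrf1 and 0.77 in Nrf2 libraries. *Palb2*, a DNA repair partner of BRCA2 with a Keap1-binding motif, rose by 0.99 in Nrf1 and by 0.37 in Nrf2 libraries (limma adjusted p = 1.17e-06 and 0.0307), and *Prkcd*, a protein kinase C that phosphorylates Nrf2, rose by 0.59 and 0.29. *Trim21*, an interferon-responsive ubiquitin ligase that acts on p62, fell the most, from 393 to 90.3 with Nrf1 (-2.12 ± 0.09; limma adjusted p = 1.96e-11) and from 420.1 to 182 with Nrf2 (-1.20 ± 0.07; limma adjusted p = 3.78e-09).

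None of 8 measured coactivators and corepressors was called by limma with either factor. Of all genes tested, 11.2% were called higher and 16.5% lower with Nrf1, and 8.78% and 9.28% with Nrf2. By adjusted p alone, 2 of the 8 changed with Nrf1, both lower, and 4 with Nrf2, 2 in each direction. Of all genes, 34.7% rose and 32.3% fell with Nrf1, and 28.6% rose and 26% fell with Nrf2. At an unadjusted p under 0.05 it was 2 lower with Nrf1, and 2 higher and 3 lower with Nrf2. At that p, 4033 of all 11195 genes tested were higher and 3769 lower with Nrf1. With Nrf2 it was 3504 and 3293 of 11379. Their median log2 fold changes were 0.03 and -0.12.

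The readouts of the antioxidant response element were examined last. Of 15, 14 could be tested against LacZ, since the LacZ reads of *Fth1* were not solved. All 14 rose with Nrf2, 13 of them called, with a median log2 fold change of 1.82 against 0.00 over all genes. Of all genes tested, 28.6% rose with Nrf2 and 8.78% were called higher. With Nrf1, 12 rose and 2 fell, with 7 called higher and a median of 0.63. There, 34.7% of all genes rose, 32.3% fell and 11.2% were called higher, with a median of 0.01. Directly compared, 13 of 15 were higher and 2 (*Hmox1* and *Blvrb*) lower with Nrf2 than with Nrf1 by adjusted p, with 10 called higher. In that comparison 28.6% of all genes were higher and 30.2% lower by adjusted p, and 10.6% were called higher.

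*Srxn1*, which encodes the enzyme that repairs overoxidised peroxiredoxins, rose by 2.77 ± 0.05 with Nrf2 (group means of 656 and 4487; limma adjusted p = 8.89e-15) and by 1.71 ± 0.05 with Nrf1 (614 and 2007). *Nqo1*, a quinone reductase, rose by 2.76 and 0.46, *Osgin1*, a growth inhibitor induced by oxidative stress, by 2.66 and 0.99, and *Gclm*, the modifier subunit of glutathione synthesis, by 2.26 and 1.42, with Nrf2 and Nrf1 in that order. *Slc7a11*, the cystine importer, rose by 2.11 with Nrf2 (limma adjusted p = 2.35e-12) and fell by 0.29 with Nrf1 (limma adjusted p = 0.00445). *Blvrb*, biliverdin reductase B, was the one of these 6 with the larger value for Nrf1, at 2.46 against 1.90 with Nrf2, and the difference between the factors was -0.56 ± 0.04 (limma adjusted p = 3.84e-09).

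**Figure D4:**
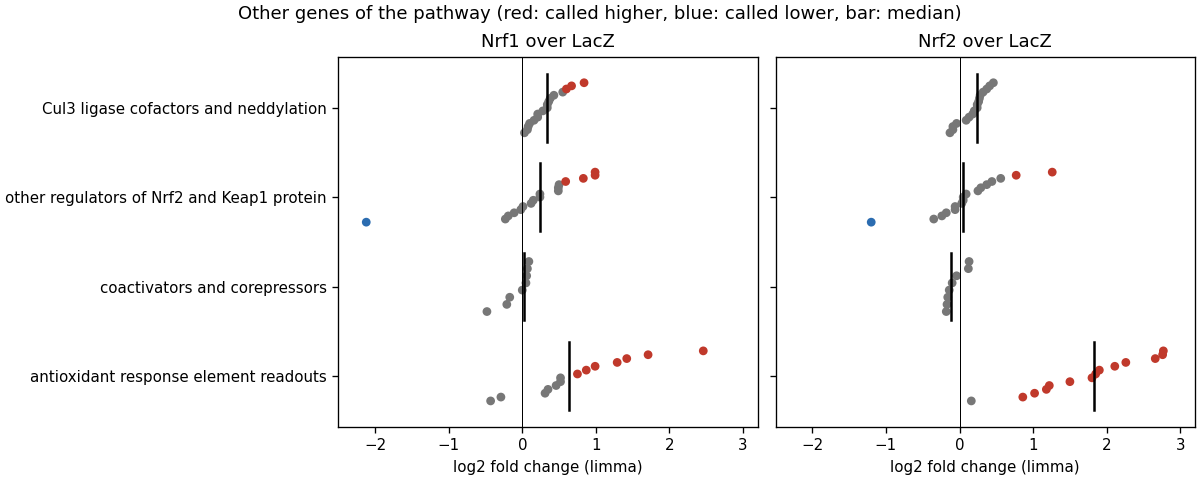
Log2 fold change from limma of each tested gene of 4 of the lists (points, spread vertically for legibility) with Nrf1 and Nrf2 over LacZ, red where called higher and blue where called lower; black bars mark the median of a list. The readouts have a median of 0.63 with Nrf1 and 1.82 with Nrf2, whereas coactivators and corepressors lie around 0.

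The place of the members among all genes was described in the plane of their log2 ratios of group means over LacZ, for 8451 genes with a mean of at least 100. The genes nearest to *Keap1*, by distance in this plane on the log2 scale, were *Rnh1*, *Nsfl1c*, *Mmadhc*, *Rangap1* and *Pgam1*, at 0.0201 to 0.0417. *Rnh1*, the ribonuclease inhibitor, stood at 0.99 with Nrf1 and 0.79 with Nrf2. Those nearest to *Mafg* were *Ptk2b*, *Gbe1*, *Ermp1*, *Abtb1* and *Bnip3*, at 0.0385 to 0.0627. Around *Bach1* the plane was sparser: its nearest were *Mgst2*, *Reln*, *Mllt3*, *Cited1* and *Flrt3*, at 0.134 to 0.241. *Mgst2*, a microsomal glutathione transferase, stood at 0.01 with Nrf1 and 1.32 with Nrf2. Likeness here rests on 2 ratios that share the LacZ group, and it is a description with no test.

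**Figure D5:**
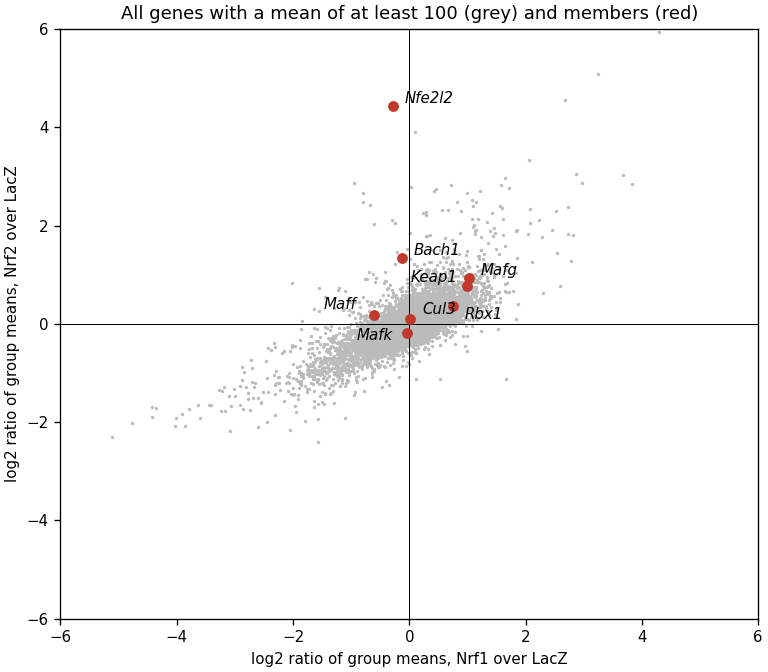
Log2 ratio of group means over LacZ with Nrf1 (x) and with Nrf2 (y) for 8451 genes (grey) and the 8 members (red). *Nfe2l2*, whose reads include the transgene in the Nrf2 group, lies at -0.28 and 4.43, *Bach1* at -0.13 and 1.33, and *Keap1* and *Mafg* lie together near 1 on the x axis.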

How the data were processed

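Per the study's methods and the submitters' processing notes, reads of 75 bp from 1 end were checked (FastQC 0.11.4), aligned to rat Rnor_6.0 (HISAT2 2.0.4), cleared of duplicates (SAMtools 0.1.18), counted (featureCounts 1.6.0) and tested (edgeR 3.20.5) by the authors. The sample labels name mouse as the organism, although the cells are rat. The *Nfe2l2* reads of the Nrf2 libraries, 69328 to 95074, outnumber the 1791 coding bases of the insert, and how duplicate removal acted on them was not tested.

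The authors deposited 3 tables, 1 per pair of groups, whose signal is the mean over a group of counts divided by size factors. The tables also hold the authors' fold changes and p-values, which were not used. Each group mean is a weighted sum of 3 whole read counts, and each group is in 2 tables with different weights. Solving both gave 1 set of reads for 14441 of 14449 genes in LacZ, with 8 high genes left out, and for all 14245 in Nrf1 and 14617 in Nrf2. The solver was tested on simulated data for the LacZ and Nrf1 groups, and not for the Nrf2 group. Solved reads cannot be tied to sample numbers, and 0 columns of single samples were left unused.

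The reads were fitted with limma 3.58.1 in R 4.3.3: log2(normalised count + 1), the authors' size factors, a minimum mean of 10, the 2 groups alone, a mean-dependent prior, Benjamini-Hochberg adjustment over all genes. A call needed an adjusted p under 0.05 and over 1.5-fold. Fold changes are on the log2(count + 1) scale, which understates those of low genes. The table of all 9 libraries was scaled by median ratios. Libraries held 7759856 to 11960378 counted reads.

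Members and lists were chosen with earlier results of these data known. In the lists, genes past 1.5-fold in either comparison with LacZ were named, at most 6 per list, largest first. Neighbours were the 5 nearest genes whose mean reached 100 in a group of both tables with LacZ. In each table with LacZ, 26 rows with symbols written as dates were left out, 4 of which share a symbol. Promoter motifs were not searched and rat coordinates and proteins were not used here, since the reference at hand is mouse. One gene of the lists is not reported here.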

Additional observations from a re-analysis of the deposited data

How the results depend on the processing

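The calls of *Keap1*, *Mafg*, *Rbx1*, *Bach1* and *Nfe2l2* did not change in any of the 11 limma alternatives of a comparison. No value of a member that passed the test changed sign. No paired analysis was possible because the columns carry no replicate numbers. The 1 member called lower with Nrf1, *Maff*, was lost in 3 of the 6 fits that leave out 1 library, so that their count ranged from 0 to 1.

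Requiring over 2-fold in the group means left 1 member higher and 0 lower with Nrf1. With Nrf2 it left 2 higher, *Bach1* and *Nfe2l2*, whose reads include the transgene. Of 16 pathway genes higher and 5 lower past 1.5-fold with Nrf1, it left 5 and 3, and of 12 and 2 between Nrf2 and Nrf1 it left 5 and 1. With a mean of at least 100, 1 pathway gene was lower in each of the 3 comparisons. All genes past 1.5-fold fell to 1359 higher and 2072 lower with Nrf1, 1136 and 1270 with Nrf2, and 1418 and 594 for Nrf2 over Nrf1 at a mean of at least 10. They fell to 995 and 1021, 665 and 576, and 649 and 367 at a mean of at least 100, where fewer genes are counted.

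With no fold required, an alternative chosen after seeing the data, limma gave 3885 higher and 3613 lower with Nrf1, 3252 and 2962 with Nrf2, and 3232 and 3410 for Nrf2 over Nrf1, and 2, 1 and 3 members lower. *Bach1*, with 106 to 121 reads per library in LacZ and Nrf1, had the widest interval of the members with Nrf1, -0.36 to 0.11.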
